A study of Homo sapiens with 4 samples.

Results

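GATA3 occupancy at 10 genes of the Nodal and activin pathway was examined in H1 human embryonic stem cells (hESCs) after 6 h of BMP4 at 50 ng/ml. H1 is an established pluripotent line, here maintained on Matrigel in mTeSR1, and all samples came from this 1 line, with no genetic change and no other agent named in the labels. The genes were chosen by name, with earlier results of these data known, out of 20033 protein-coding genes in the annotation. They were NODAL, LEFTY1, LEFTY2, INHBA, GDF3, CER1, FOXH1, ACVR1B, ACVR2A and ACVR2B. For each, every GATA3 ChIP-seq position was taken that lay within 100 kb of the 5′ end of the gene or in its body, or that carried its symbol in the authors' list. A position is the single base that stands for a called peak in the lists. A shared region is a pair of positions, 1 from each replicate, at most 100 bp apart. The series held 4 samples, 2 GATA3 ChIP replicates and 2 inputs, all treated with BMP4. The peak lists of the 2 ChIP replicates were analysed, with 18456 and 12782 distinct positions on the chromosomes and 9145 shared regions. The lists hold no height, width or score and no untreated ChIP sample was compared, so presence and place of binding are described, and neither its strength nor a response to BMP4. Nothing here measures transcription of the genes.

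Nodal and the activins are ligands of the TGF-β family. They bind type II receptors such as ACVR2A and ACVR2B, which recruit and activate type I receptors such as ACVR1B, and these phosphorylate SMAD2 and SMAD3. The SMADs enter the nucleus with SMAD4 and are brought to many of their sites by partner proteins such as FOXH1, a forkhead factor. LEFTY1, LEFTY2 and CER1 are secreted inhibitors, and LEFTY genes are themselves well-known targets of the pathway, which gives it negative feedback. This signal helps to maintain pluripotency in hESCs and drives mesendoderm formation, and it stands beside the SMAD1/5/8 arm that BMP4 activates. In the mouse, an enhancer in the first intron of Nodal is known to contain FoxH1 sites.

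The 10 genes had 18 distinct positions in replicate 1 and 16 in replicate 2, which formed 10 shared regions. At least 1 shared region was found at 6 of the 10 genes: NODAL, LEFTY1, LEFTY2, INHBA, ACVR2A and ACVR2B. Of all protein-coding genes, 47.5% had 1 under the same rule by position, so 6 of 10 is near the background. LEFTY1 and LEFTY2 are neighbours, and their 2 regions are the same 2. None was found at GDF3, CER1, FOXH1 or ACVR1B. In replicate 1 alone, 8 of the 10 genes had a position, against 68.5% of all protein-coding genes. In replicate 2 alone, 8 did as well, against 57.2%. The median number of shared regions per gene was 1 for the 10 genes and 0 over all genes. Counting each region only for the gene with the nearest 5′ end left 4 of the 10 genes, NODAL, LEFTY2, INHBA and ACVR2A, against 21.7% of all protein-coding genes.

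**Figure D1:**
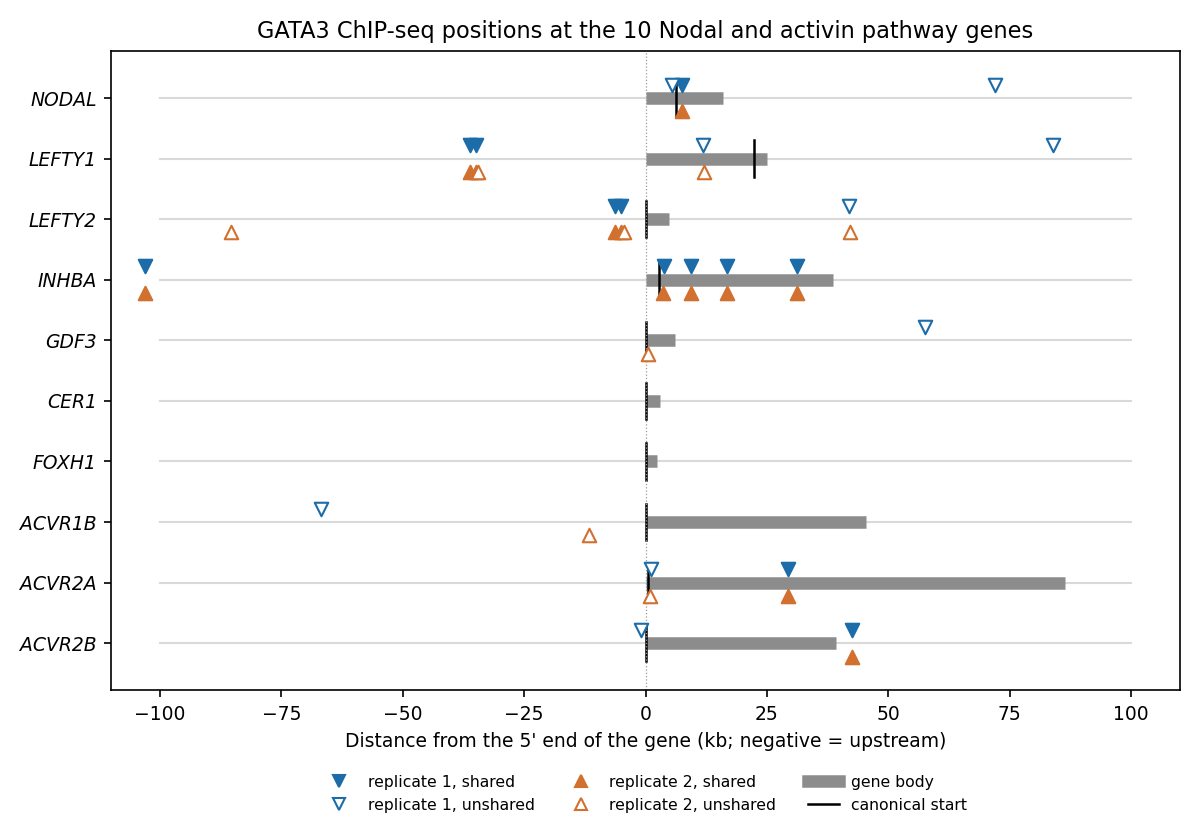
Each row is a gene, and each triangle is a GATA3 position at its distance in kb from the 5′ end of the gene record, with replicate 1 above the line and replicate 2 below it. Filled triangles are shared regions, open ones have no partner within 100 bp, grey bars are gene bodies and black ticks are canonical transcript starts. INHBA has 4 filled pairs in its body and 1 at 103 kb upstream, while the rows of CER1 and FOXH1 are empty.

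The shared region of NODAL held a combination of consensus sequences that was rare among the shared regions. The window of 200 bp around it held no match to the GATA consensus, taken as GATA with A or T before it and A or G after it and called WGATAR here, and no GATA tetranucleotide on either strand. It held 2 copies of AATCCACA, the core recognised by FOXH1, and 2 of GTCTG, the SMAD-binding element. By itself, the count of 2 or more GTCTG was not rare and was met by 8.79% of all shared regions. Of the 9145 shared regions, 82.0% held WGATAR in a window of the same length and 92.6% held GATA. The NODAL window was 74.0% G and C, and the regions it is set beside were not matched for base composition. The count of 2 AATCCACA, a criterion chosen after the NODAL window had been seen, was met by 1 shared region of 9145 (0.0109%), that of NODAL. In windows on each replicate's own positions, it was met by 3 of 18456 in replicate 1 and 1 of 12782 in replicate 2. Of these, 2 in replicate 1 and the 1 in replicate 2 were unshared. The window is printed because it carries this pattern, and the capitals mark TGTGGATT, which is AATCCACA read on the opposite strand.
NODAL, shared region, hg38 chr10:70440417-70440616, plus strand: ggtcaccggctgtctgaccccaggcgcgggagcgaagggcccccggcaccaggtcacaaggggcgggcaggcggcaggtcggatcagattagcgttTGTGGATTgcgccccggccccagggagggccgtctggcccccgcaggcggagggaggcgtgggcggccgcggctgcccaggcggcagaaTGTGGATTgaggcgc

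The 2 copies of AATCCACA began 89 bp apart. The nearer copy was centred 19.5 bp from the position of each replicate, between them. For scale, the 2 positions of a shared region were 7 to 84 bp apart at the 10 genes. Of the windows on the midpoint and on each replicate's own position, the one on the midpoint alone held 2 of both. The window around the replicate 1 position held 2 AATNCACA and 1 GTCTG, that around the replicate 2 position held 1 AATNCACA and 2 GTCTG, and both lacked WGATAR. The looser consensus AATNCACA was found in 1 of the 10 regions, against 4.31% of all shared regions, and 2 or more copies were found in 7 of 9145 (0.0765%). Of these 7, the NODAL region was the only 1 with no WGATAR. A match in letters does not show which protein was bound, and occupancy by FOXH1 or SMAD proteins was not measured in these samples.

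**Figure D2:**
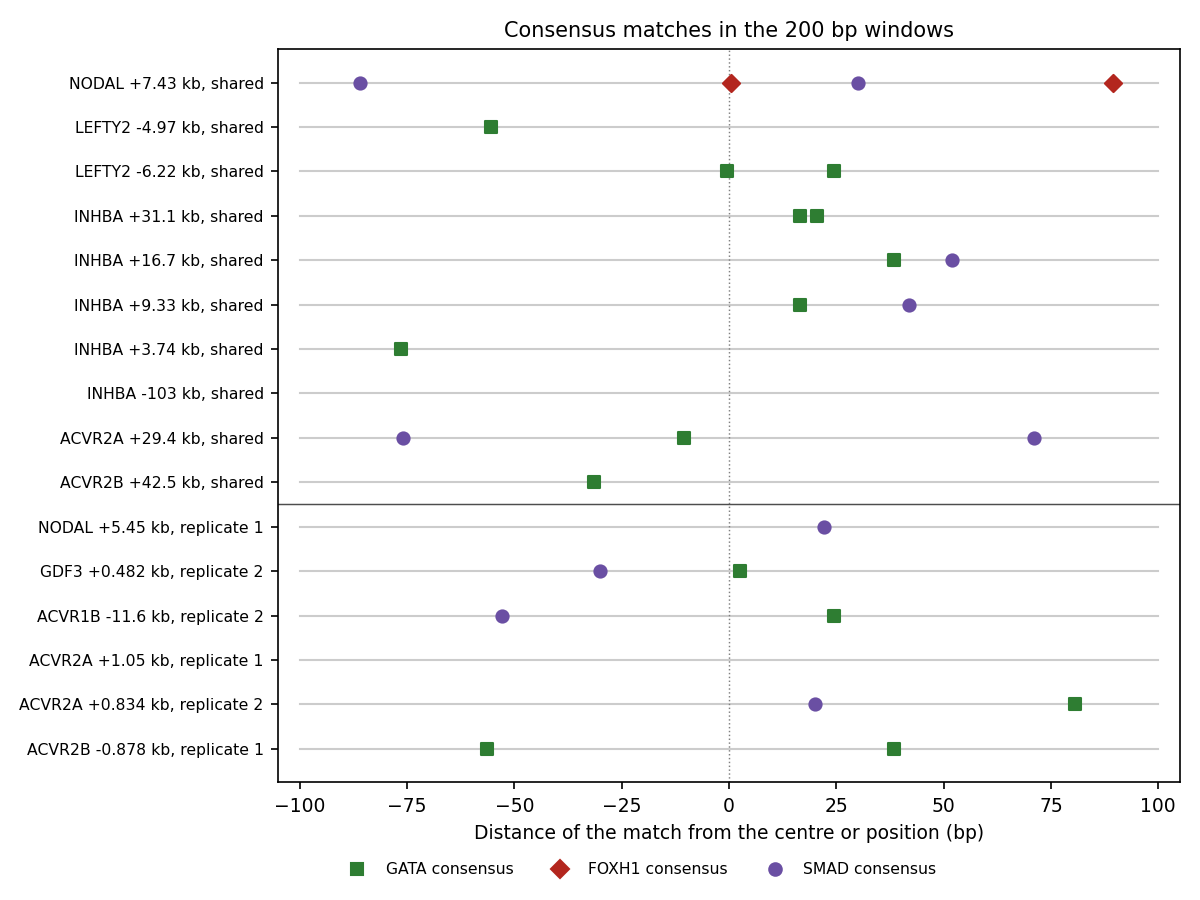
Each row is a window of 200 bp around a shared region (above the line) or around a position without a partner nearest to NODAL, GDF3 or a receptor gene (below it), labelled with its distance from the 5′ end. Symbols mark the distance in bp of each match from the centre, for the GATA (WGATAR), FOXH1 (AATNCACA) and SMAD (GTCTG) consensus. The FOXH1 symbols fall in 1 row, that of the NODAL region, which has no GATA symbol.

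NODAL, the ligand that gives the pathway its name, lies on the minus strand of chromosome 10 (ENSG00000156574.10, chr10:70431936-70447951). Its shared region was at 70440536 in replicate 1 and 70440497 in replicate 2, 39 bp apart. It lay in intron 1, 1.16 kb downstream of the canonical transcript start and 7.43 kb inside the longer gene record, whose 5′ end lies 6.27 kb further upstream. The window was rich in G and C (74.0%). The authors' lists gave this region to RP11-104F15.9 in both replicates and not to NODAL. Replicate 1 had 2 further positions. The 1 at 70442503 lay 0.822 kb upstream of the canonical start and carried the name NODAL, and replicate 2 had nothing closer to it than 2.01 kb. The other, at 70376074, was 71.9 kb away and lay 6.58 kb from the 5′ end of LRRC20.

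INHBA, which encodes the βA subunit of activin A and of inhibin A, had the most shared regions of the 10 genes. It lies on the minus strand of chromosome 7 (ENSG00000122641.11, chr7:41667168-41705834), and no other protein-coding 5′ end falls within 100 kb of its own. Both replicates had 5 positions there and all 5 were shared. By position alone INHBA had 4 shared regions, a number reached by 2.05% of protein-coding genes, 410 of 20033. INHBA was singled out here as the highest of 10 genes, and that share is for a single gene, not for the highest of 10. The region nearest to the start fell in intron 1, at 41702055 in replicate 1 and 41702139 in replicate 2, 0.993 kb downstream of the canonical start. It also had the widest gap between replicates of the 10 regions, 84 bp. The next, at 41696505 and 41696497, was in intron 2, 9.33 kb from the 5′ end. The third, at 41689145 and 41689091, fell in the untranslated part of exon 3, at 16.7 kb. The fourth, at 41674755 and 41674748, lay 31.1 kb along, past the end of the canonical transcript but inside the gene record. The last, at 41808877 and 41808903, lay 103 kb upstream and entered only because the authors named it INHBA.

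The 4 regions in the INHBA body each held WGATAR, and the region 103 kb upstream held none and no GATA. Its only match among the 9 sequences searched was 1 SOX consensus (ACAAAGG or ACAATGG), found in 13.3% of all shared regions. In the region at 31.1 kb, matches on the minus strand overlapped as CTATCTATCA, 16.5 and 20.5 bp from the centre. In the region at 9.33 kb the match was TGATAA, 16.5 bp from the centre, with a GTCTG at 42 bp. The match in intron 1 was further out, 76.5 bp from the centre. The authors named 3 of the 4 body regions for INHBA-AS1, an antisense transcript, and the regions in introns 1 and 2 overlap both gene records. A position cannot be given to 1 strand. The windows of the 2 regions with matches nearest to the centre and of the upstream region without any are printed, with WGATAR in capitals.
INHBA, 31.1 kb, hg38 chr7:41674652-41674851, plus strand: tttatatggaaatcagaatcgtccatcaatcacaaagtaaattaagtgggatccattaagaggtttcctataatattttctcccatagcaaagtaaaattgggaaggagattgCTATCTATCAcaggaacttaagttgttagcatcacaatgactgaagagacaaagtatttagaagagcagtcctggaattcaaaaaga
INHBA, 9.33 kb, hg38 chr7:41696402-41696601, plus strand: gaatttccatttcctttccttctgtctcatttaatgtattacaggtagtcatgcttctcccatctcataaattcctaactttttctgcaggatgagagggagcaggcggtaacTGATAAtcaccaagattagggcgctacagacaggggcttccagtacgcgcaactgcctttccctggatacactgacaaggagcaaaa
INHBA, 103 kb upstream, hg38 chr7:41808791-41808990, plus strand: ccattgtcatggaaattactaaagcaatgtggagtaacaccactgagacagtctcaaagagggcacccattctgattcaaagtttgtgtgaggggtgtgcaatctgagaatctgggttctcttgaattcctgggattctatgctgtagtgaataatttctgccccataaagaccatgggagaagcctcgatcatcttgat

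GDF3, a ligand of the same family that is expressed in pluripotent cells, had no shared region. Its 1 position in replicate 2, at 7695293 on chromosome 12, lay in intron 1, 0.482 kb from the 5′ end, and carried its name. A WGATAR match was centred 2.5 bp from it and a GTCTG 30 bp from it. The only position of replicate 1 in the window, at 7638167, was 57.1 kb from that of replicate 2 and lay 27.7 kb from the 5′ end of APOBEC1. This replicate 1 position also held WGATAR, 43.5 bp away. The nearest shared region was 240 kb upstream of GDF3.

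The inhibitors LEFTY1 and LEFTY2 lie next to each other on the minus strand of chromosome 1 (ENSG00000243709.1, chr1:225886282-225911382, and ENSG00000143768.13, chr1:225936598-225941383). Both of their shared regions lay upstream of LEFTY2. The first was at 225946355 in replicate 1 and 225946345 in replicate 2, 4.97 kb upstream of LEFTY2. The second was at 225947595 and 225947615, 6.22 kb upstream. Seen from LEFTY1 they lay 35.0 and 36.2 kb upstream of the gene record and 57.2 and 58.5 kb upstream of the canonical start, which is 22.2 kb from the 5′ end of the record. The authors named both for LEFTY2. The first held 1 AGATAA, 55.5 bp from its centre. The second held 2 WGATAR matches on the minus strand, 0.5 and 24.5 bp from its centre, and neither held AATNCACA or GTCTG. Both windows are printed with WGATAR in capitals.
LEFTY2, 4.97 kb upstream, hg38 chr1:225946251-225946450, plus strand: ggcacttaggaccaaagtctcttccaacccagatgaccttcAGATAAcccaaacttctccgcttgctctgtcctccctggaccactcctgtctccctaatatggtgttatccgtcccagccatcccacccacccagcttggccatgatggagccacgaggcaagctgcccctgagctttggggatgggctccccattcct
LEFTY2, 6.22 kb upstream, hg38 chr1:225947506-225947705, plus strand: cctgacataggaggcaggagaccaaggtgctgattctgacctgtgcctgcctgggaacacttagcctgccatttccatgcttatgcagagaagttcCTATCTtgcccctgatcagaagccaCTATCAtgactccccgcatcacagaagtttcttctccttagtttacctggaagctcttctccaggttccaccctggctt

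Replicate 2 had a further position upstream of LEFTY2, 527 bp from the nearest position of replicate 1. At LEFTY1 itself each replicate had a position inside the gene record but upstream of the canonical start, by 10.4 kb in replicate 1 and 10.3 kb in replicate 2. These were 138 bp apart, just outside the limit for a shared region. The remaining positions within 100 kb were nearer to other genes, EPHX1 in replicate 1 (225827422) and SDE2 in replicate 2 (226026802). LEFTY1 and LEFTY2 are close in sequence, with 92.5% identity over 1249 aligned bases of their bodies, and reads mapping to more than 1 place had been removed by the authors. In the windows of the positions named here every stretch of 75 bases, the read length in the study's methods, occurs once in hg38.

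CER1, an antagonist of Nodal and BMP ligands on chromosome 9, had no position in either replicate within 100 kb. Its nearest shared region lay 185 kb upstream, 3.49 kb from the 5′ end of FREM1. With no scores or signal in the lists, binding below the authors' calling threshold cannot be seen. Of the stretches of 75 bases within 100 kb of its 5′ end, 96.4% occur once in the genome, the lowest share of the 10 genes, for which it ranged up to 99.8%.

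Among the listed receptor genes, ACVR2A and ACVR2B (type II) each had a shared region and ACVR1B (type I) had none. Of all protein-coding genes 47.5% had at least 1, and so few receptor genes cannot tell whether the receptor types differ. By nearest 5′ end, only ACVR2A kept its region. The type I receptor gene ACVR1C, outside the list, also had 1. ACVR2A lies on the plus strand of chromosome 2 (ENSG00000121989.15, chr2:147844517-147930826). Its region was at 147873929 in replicate 1 and 147873956 in replicate 2. It fell in intron 1, 29.4 kb from the 5′ end, and no other protein-coding 5′ end fell within 100 kb of that of ACVR2A. It held 1 AGATAA 10.5 bp from the centre, which is in capitals below, and 2 GTCTG. Both replicates also had a position close to the ACVR2A start, at 147845568.5 and 147845351, 1.05 and 0.834 kb into the gene. These were 217.5 bp apart and so were not shared. The replicate 1 window held no WGATAR, and that of replicate 2 held 1, 80.5 bp away.
ACVR2A, 29.4 kb, hg38 chr2:147873843-147874042, plus strand: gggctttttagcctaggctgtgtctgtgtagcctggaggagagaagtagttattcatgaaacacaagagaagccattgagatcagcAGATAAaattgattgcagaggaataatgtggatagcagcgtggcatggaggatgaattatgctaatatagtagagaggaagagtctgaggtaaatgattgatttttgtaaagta

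ACVR2B lies on the plus strand of chromosome 3 (ENSG00000114739.14, chr3:38453890-38493142). Its shared region, at 38496399 and 38496414, lay past the end of the gene, 42.5 kb from the 5′ end, and only 0.28 kb from the 5′ end of EXOG, a mitochondrial nuclease gene. The authors named it EXOG in both replicates. It was the only 1 of the 10 regions whose nearest protein-coding 5′ end was not that of a listed gene. Nearer to ACVR2B itself, replicate 1 had a position at 38453012, 0.878 kb upstream of its 5′ end, with 2 WGATAR matches at 56.5 and 38.5 bp, and replicate 2 had none within 43.4 kb of it. ACVR1B, on the plus strand of chromosome 12, had 1 position per replicate, 55.3 kb apart. That of replicate 2, at 51940125, was 11.6 kb upstream and held WGATAR 24.5 bp away. That of replicate 1, at 51884814, was 66.9 kb upstream and 3.19 kb from ANKRD33, and also held WGATAR, 17.5 bp away.

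FOXH1, the DNA-binding partner of SMAD2 and SMAD3, had no position in either replicate within 100 kb. The nearest was 284 kb upstream in replicate 1 and 150 kb away on the other side in replicate 2, and the nearest shared region was 340 kb upstream. There were 15 other protein-coding 5′ ends within 100 kb of that of FOXH1, more than at any other of the 10 genes.

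**Figure D3:**
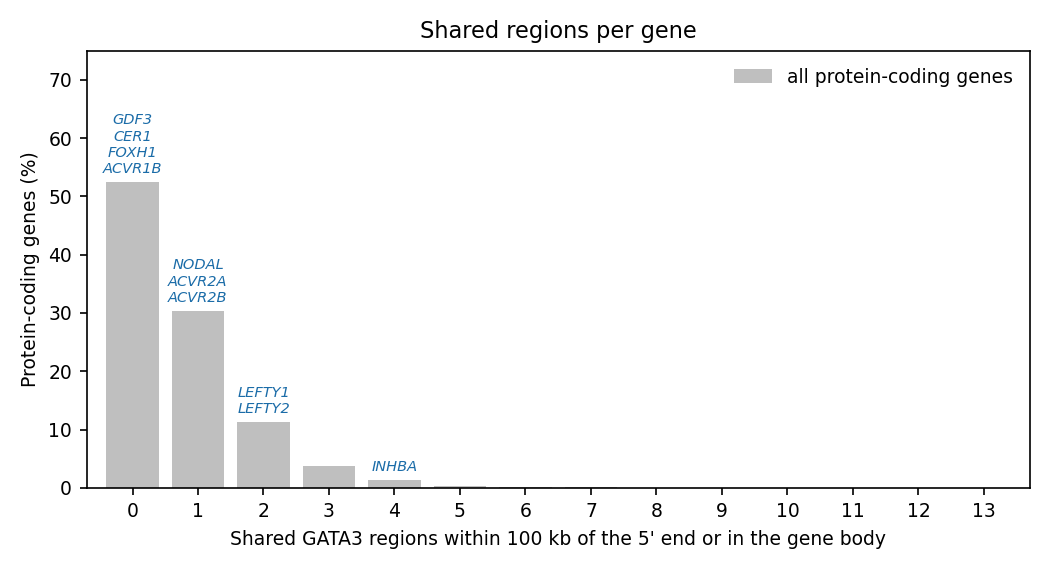
Bars give the percentage of 20033 protein-coding genes with each number of shared regions within 100 kb of the 5′ end or in the body, and the names above a bar are those of the 10 genes with that number. GDF3, CER1, FOXH1 and ACVR1B stand at 0 with 52.5% of genes, and INHBA at 4 with 1.31%.

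Few of the 10 shared regions lay close to a 5′ end, which was also the case over the whole list. Within 1 kb of its own annotated 5′ end, 0 of the 10 genes had a shared region, against 2.42% of all protein-coding genes. Of the 10 regions, 1 was within 1 kb of any protein-coding 5′ end, that of EXOG, against 4.72% of all 9145. From the canonical start, the intron 1 region of INHBA came just inside 1 kb and that of NODAL just outside. Relative to the canonical transcripts, 4 regions were in introns, 1 in an exon, 3 upstream and 2 downstream. Counting from the 5′ end of the gene record, positions within 1 kb were found in 1 replicate each at GDF3, ACVR2A and ACVR2B. From the canonical start, ACVR2A had an unshared position within 1 kb in both replicates, at 0.539 kb in replicate 1 and 0.322 kb in replicate 2. NODAL also had an unshared position in replicate 1, 0.822 kb upstream of its canonical start.

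Replicate agreement at the 10 genes was near that of the whole lists. In replicate 1, 10 of 18 positions were shared (55.6%, 95% CI 33.7 to 75.4), against 49.6% (48.8 to 50.3) of all positions. In replicate 2, 10 of 16 were shared (62.5%, 38.6 to 81.5), against 71.5% (70.8 to 72.3). Both intervals of the 10 genes, by Wilson's method and for counting error alone, contain the share of the whole list. They treat positions as independent, although INHBA alone gave 5 of the 10 shared positions in each replicate and had no unshared ones. The closeness to the whole list therefore leans on this 1 gene. The gap between replicates in a shared region had a median of 23 bp at the 10 genes and 23 bp over all 9145 regions. In each replicate 2 further positions, at LEFTY1 and ACVR2A, had a partner between 101 and 500 bp away, which was the case for 6.89% of all positions in replicate 1 and 9.8% in replicate 2.

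WGATAR was found in 8 of the 10 regions (80.0%), near its 82.0% over all shared regions, and was absent at NODAL and 103 kb upstream of INHBA. In the 8, the nearest match had a median distance of 24 bp from the centre, against 17.5 bp over the 7498 regions with a match. The strict form AGATAA was in 4 of 10 against 51.6% overall. GTCTG was in 4 of 10 against 36.1%. Of the positions without a partner, 5 of 8 in replicate 1 and 5 of 6 in replicate 2 held WGATAR, against 72.9% and 67.0% of all such positions. The other sequences searched were rare at the 10 genes. GGAATG, the TEAD core, was in 1 of 10 against 18.9%. The SMAD1 element GGCGCC (1.96% overall), the octamer ATGCAAAT of OCT4 (5.1%) and the AP-1 site TGACTCA or TGAGTCA (5.64%) were in none. With 10 regions, these counts cannot separate moderate differences from the background.

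Of 23 other genes of the pathway, 13 had a shared region (56.5%), also near the 47.5% of all protein-coding genes, with a median of 1 region per gene. For 8 of the 13 the nearest region had that gene as its nearest protein-coding gene. Counting each region only for the gene with the nearest 5′ end left 9 of the 23, against 21.7% of all protein-coding genes. Closest to its start was TDGF1, which encodes the Nodal co-receptor CRIPTO. Its region, at 46574592 and 46574575 on chromosome 3, lay 0.0495 kb from the 5′ end. SKIL, a repressor of SMAD activity, had a region 2.61 kb upstream. FST, which encodes the activin-binding protein follistatin, had 2 regions, the nearer at 6.07 kb in its body. BAMBI, a pseudoreceptor that dampens TGF-β signals, had 3, the nearest at 7.82 kb. SMAD2 had 3, the nearest at 29.4 kb in its body.

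For the type I receptor gene ACVR1C the nearest region was 56.4 kb upstream, and for FURIN, a protease that matures the ligands, it was 61.2 kb upstream. CFC1, a second co-receptor gene, had a region 8.43 kb away, which was also the 1 counted for its near-identical copy CFC1B at 69.9 kb, so neither assignment is certain. For INHA, INHBB, SMAD4 and DAND5 the nearest region, between 27.5 and 68.8 kb upstream, was closer to another protein-coding gene. That gene was GMPPA for INHA, RALB for INHBB, ENSG00000267699 for SMAD4 and CALR for DAND5. The 10 with none were GDF1, INHBC, INHBE, SMAD3, FSTL3, PCSK6, DRAP1, SKI, TRIM33 and PMEPA1. The nearest shared region to SMAD3 was 191 kb from its 5′ end, next to IQCH.

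**Figure D4:**
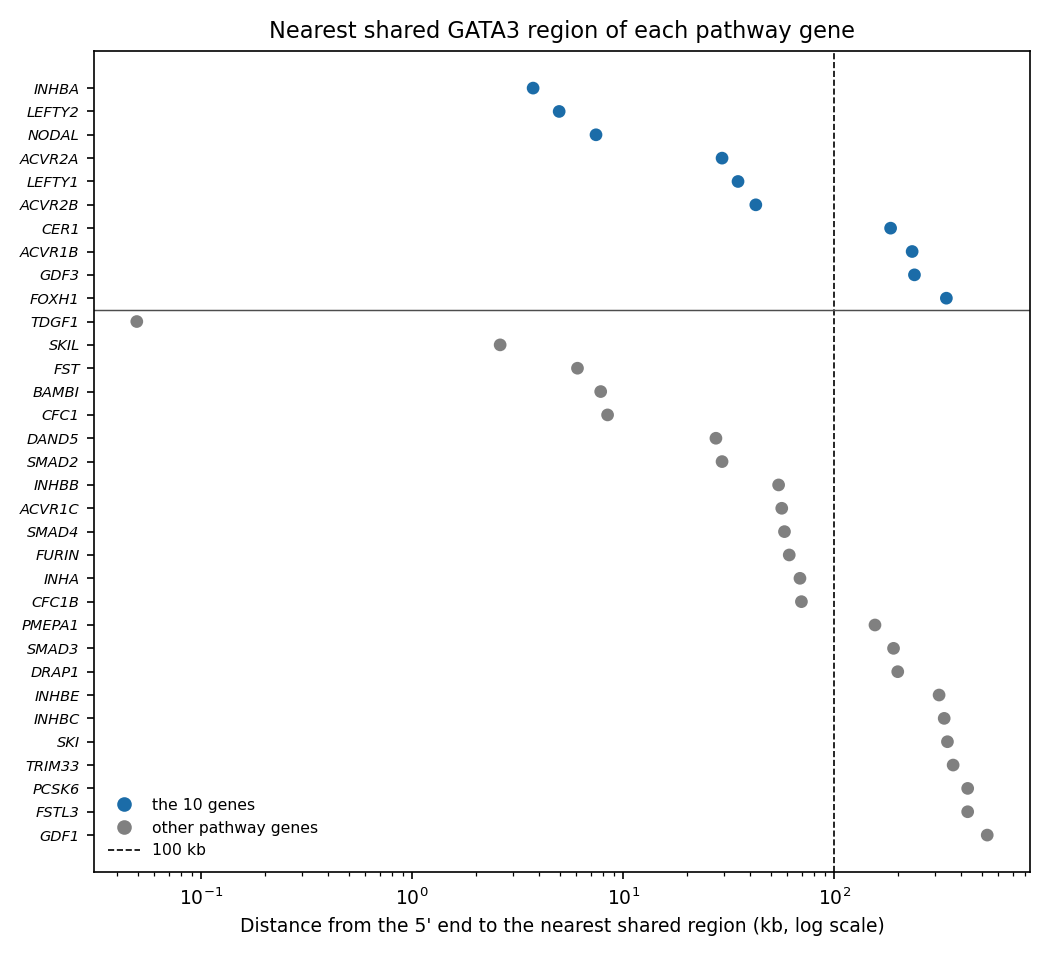
Points give the distance in kb, on a log scale and without direction, from the 5′ end of each gene to its nearest shared region, for the 10 genes (blue) and 23 other pathway genes (grey). The dashed line is 100 kb. TDGF1 is nearest at 0.0495 kb, and of the 10 genes INHBA is nearest at 3.74 kb and FOXH1 furthest at 340 kb.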

How the data were processed

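Per the study's methods and the submitters' processing notes, the authors trimmed reads with cutadapt, aligned them to hg38 (Bowtie), dropped duplicates (Picard), multiply mapped reads and blacklisted regions, and called peaks per replicate with MACS2, using the matching input. The deposited lists give 1 base per peak as start and end, in hg38, with the authors' gene name, and these positions were used as deposited, with no other measurement. How a peak was reduced to 1 base, and whether bases are counted from 0 or 1, is not given in the sources used here, so places carry an uncertainty of at least 1 bp. Of the authors' names, 58.9% in replicate 1 and 59.5% in replicate 2 were in GENCODE release 44.

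Positions listed more than once were counted once, and those outside the 24 chromosomes were left out. Gene 5′ ends are those of the GENCODE gene records, and negative or upstream distances follow the gene's strand. Windows of 200 bp were read from hg38 and 9 sequences were searched on both strands. AGATAA is contained in WGATAR, so their counts overlap. Alike stretches were found with blastn 2.17.0. Python 3.11.15, numpy 2.4.6, pandas 2.3.3 and pysam 0.24.0 were used, and the matching, gene and motif steps were tested on simulated data. Library depth was not read from these lists. The list of replicate 1 is longer, and that of replicate 2 shorter, than the peak numbers in the study's methods, for a reason not given in the sources used here. Counts of shared regions and absent positions hold for the lists as analysed. Input and signal files were not analysed here. The sequence content at the unshared positions of LEFTY1 and LEFTY2 is not reported here.

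The design has 1 condition and 2 replicates, so no test was made and all values are descriptive. The 10 genes, the 23 other pathway genes and the sequences searched were chosen with earlier results of these data known. Named are the 10 genes with their positions, the pathway genes with a region, and any gene nearer to a region. FREM1, IQCH and the genes without a region were added after their values were seen. Alternatives changed the distance between replicates, the gene window, the 5′ end, the use of names, the background, the motif and its window, and each replicate was used alone.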

Additional observations from a re-analysis of the deposited data

How the results depend on the processing

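Over 58 alternative values, 50 stayed within 1.5 times the count or within the 95% interval of the share reported. These limits are wide with so few genes and regions. A fall from 6 to 4 genes stayed within them. So did a fall from 80.0% to 60.0% of regions with WGATAR in windows of 100 bp. Allowing replicates to lie 50, 250 or 500 bp apart gave 8, 12 and 12 shared regions, all at the same number of genes, 6. With a window of 10 kb 4 of the 10 genes had a region, against 19.0% of all protein-coding genes, with 50 kb 6 against 32.3%, and with 250 kb 9 against 75.8%. The wider window raised the regions from 10 to 21. The number of the 23 other pathway genes with a region fell to 7 at 50 kb and 6 at 10 kb. The share of all protein-coding genes fell with it, to the 32.3% and 19.0% given above. Using all annotated genes moved the background to 45.6%. Each replicate alone gave 16 to 18 positions in place of 10 shared regions. Replacing WGATAR with AGATAA lowered the share from 80.0% to 40.0%. The count of regions with 2 AATCCACA, added after seeing the data, was 0 in windows of 100 bp, which are too short for a spacing of 89 bp around this centre, and 1 of the 10 in windows of 400 bp, where 2 of all 9145 met it.

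No paired analysis was possible because the inputs, which carry the same numbers as the ChIP samples, were not analysed here and no test between groups was made. Depth, peak height and width were not in the lists used, so an absent position is not an absence of binding.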

Other observations

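Beyond 100 kb, further shared regions lay around several of the 10 genes. A region 244 kb upstream of INHBA had INHBA as its nearest protein-coding gene, at 41950150 in replicate 1 and 41950122 in replicate 2. On its other side, positions named for INHBA-AS1 by the authors lay 260 kb from the INHBA 5′ end, at 41445451 and 41445454, which is a shared pair 3 bp apart. A second pair 202 kb away, at 41503853 and 41503747, was 106 bp apart and so just outside the limit. Counting to 250 kb, NODAL gained 3 regions, nearest to PPA1 and PRF1, ACVR2B gained 2, nearest to SLC22A14 and XYLB, and GDF3 gained 2, nearest to SLC2A14.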
